A study of Mus musculus with 2 samples.

Results

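Genes annotated as transcription factors were examined in the lungs of mice without Bclaf1 and of wild-type mice. They were taken from the authors' deposited lists of clones called up-regulated or down-regulated, by the gene ontology term for transcription factor activity, leaving out clones also annotated to the cell cycle, cell division, DNA replication, protein kinases, mitochondria or mRNA processing and splicing, and 6 genes by name. This gave 106 cDNA clones of 93 gene symbols, out of 3509 listed clones and 2327 listed symbols. Each of 2 spotted cDNA arrays carried 1 wild-type sample, labelled with the dye Cy5, and 1 knockout sample, labelled with Cy3. Sample titles place the tissue at embryonic day 19, whereas the series text places it at postnatal day 1. The sources used here state neither the knockout allele, the strain nor the number of animals behind each RNA sample, so the spread between arrays may be technical.

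Transcription factors bind short DNA sequences near genes and raise or lower their transcription. Most belong to families with a shared DNA-binding fold, such as zinc fingers, homeodomains, basic helix-loop-helix and basic leucine zipper proteins, and many act as pairs, so the level of a partner matters for what a factor does. In the lung around birth, retinoid receptors, Hippo pathway factors, Wnt effectors and Stat proteins take part in the formation of airways and alveoli. Bclaf1, the deleted gene, encodes a nuclear protein that binds Bcl2 and takes part in mRNA processing.

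The value table held 22656 clones, 22532 of them with a value on both arrays, with median log2 ratios of 0.0071 and 0.0042 and SDs of 0.299 and 0.430 across clones. Dye and genotype cannot be told apart, since both arrays had the same dye orientation, and the table does not name the numerator of the ratio. Values are therefore given as positive or negative log2 ratios, and clones of the authors' up-regulated table are those with positive values. If Cy5 was divided by Cy3, positive values mean more transcript in the wild type. If the table names refer to the knockout, positive values mean more transcript in the knockout. The 1 named Bclaf1 clone lay at 0.40 and 0.41, and since nothing places this clone inside or outside the deletion, it is no check of the genotypes. The smooth muscle markers Cald1 and Myh11 are listed, at means of 0.36 and 0.63, as are the heart markers Tnnt2 at 0.86 and Myh6 at -0.37, and their part in the results was not tested. Of the markers of alveolar, airway, endothelial, blood and liver cells that were looked for, 0 are named in the tables, so the tissue label could not be checked from them. Fewer cells of a type and less RNA per cell cannot be told apart in whole tissue.

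The authors had selected all members on these same arrays, so the sizes and sides of the members are a description and support no claim about the group. In the authors' deposited table the member clones had fold changes of 1.15 to 3.21 on the up-regulated side and 0.50 to 0.88 on the down-regulated side, with p-values of 0.01 to 0.05. All 106 clones had a value on both arrays, and 105 had the same sign on both. The exception was the clone of Zfp207, at -0.28 on array 1 and 0.06 on array 2. Averaged over clones, 89 of the 93 genes had the same sign on both arrays, where 2266 of 2319 listed genes did so. Nothing is read from these counts, since the authors selected the clones on the same values. Across all 22532 clones with both values, the arrays had a Pearson correlation of 0.357 and a Spearman correlation of 0.482.

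The genes lay almost evenly on the sides. Of the 93 genes, 48 had a positive and 45 a negative mean, which is 51.6% positive, where 48.3% of the 2319 listed genes measured on both arrays were positive. The median over the members was 0.06, against -0.11 over all listed genes. The members' median is the value of Tsc22d2, whose clones lie on both sides. The median absolute log2 ratio, a measure of size without side, was 0.35 for the members and 0.34 for all listed genes. The share on the positive side and the size of the differences were thus close to those of the listed genes as a whole.

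In limma's test of every clone against 0, 0 of the 106 member clones passed an adjusted p of 0.05 (Benjamini-Hochberg), where 0% of all 22532 clones passed. The limma adjusted p of the members ran from 0.349 to 0.643. At an unadjusted p under 0.05 there were 65 member clones, 61.3%, where 13.9% of all clones passed, and nothing is read from this because the authors selected the clones on the same values. An exact sign-flip test of 2 arrays cannot give a two-sided p below 0.5. Past 1.5-fold on both arrays lay 3 of the 93 genes on the positive side (3.23%), where 2.93% of all listed genes did so, and 1 on the negative side (1.08%), where 0.949% did so. With the median absolute deviations of the arrays made equal these counts were 2 and 4, after quantile normalization 3 and 4, and with block medians subtracted 3 and 0.

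**Figure D1:**
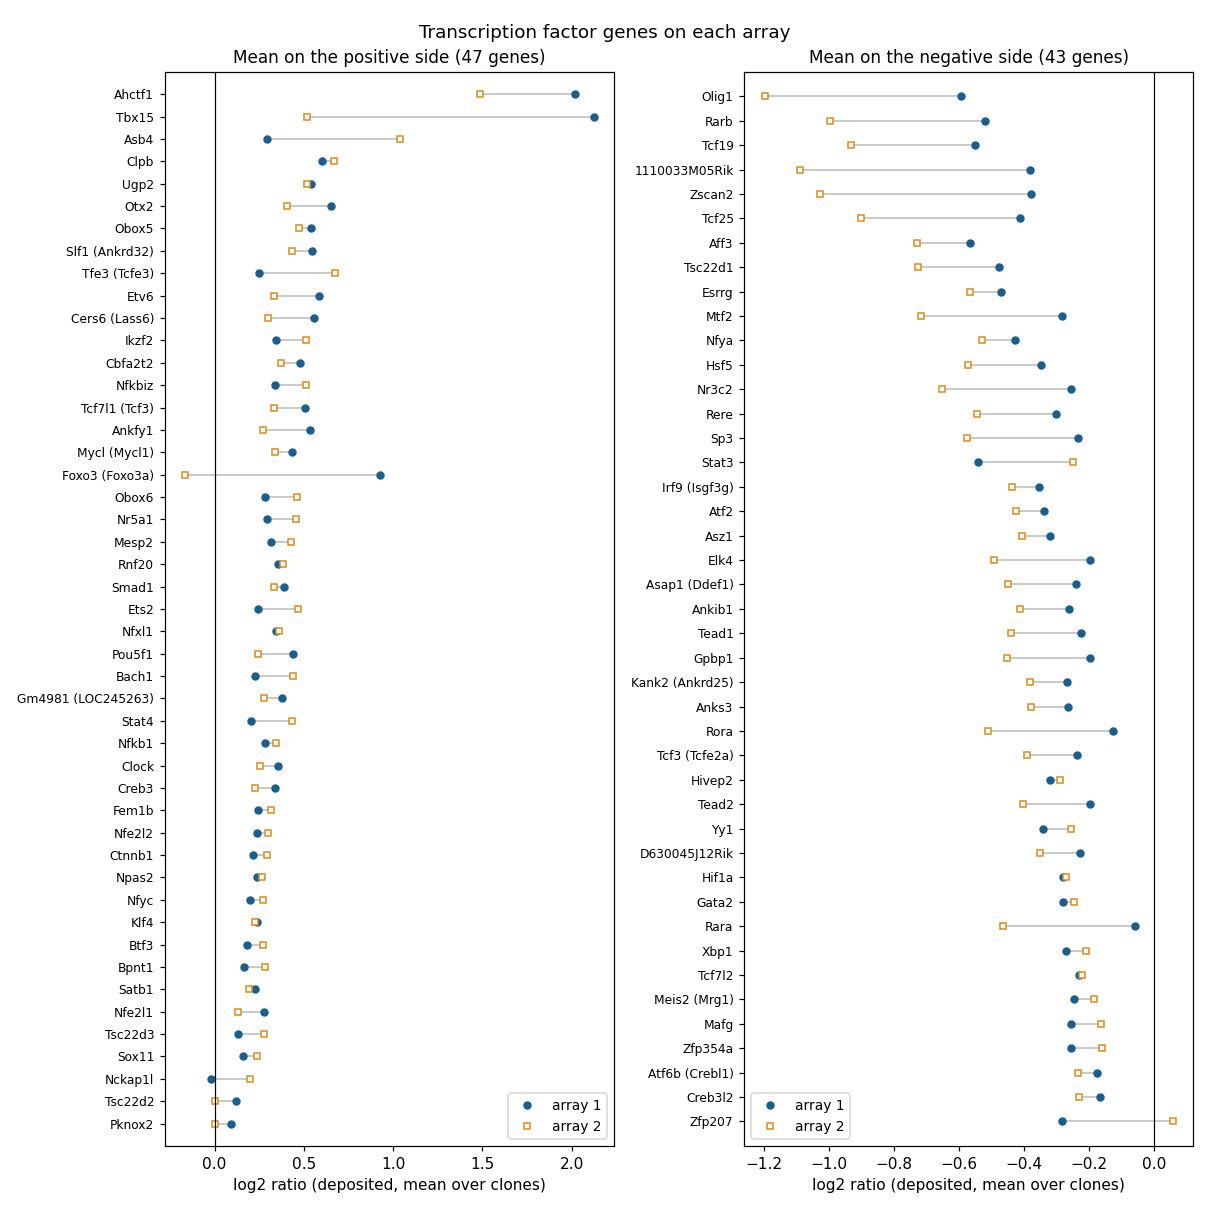
Log2 ratio of 90 of the 93 genes on array 1 (filled circles) and array 2 (open squares), averaged over the clones of a gene, with 47 genes of positive mean on the left and 43 of negative mean on the right; a second name in brackets is the symbol in the table. Most genes lie within 0.6 of 0, and Ahctf1 and Tbx15 extend farthest on the positive side.

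The 3 genes past 1.5-fold on both arrays on the positive side included Ahctf1 and Clpb. Ahctf1, which binds chromatin and is needed for nuclear pore assembly, lay at 2.02 and 1.49 on the arrays. Its mean log2 ratio was 1.75 ± 0.38 (SD, n = 2 arrays), a 3.37-fold difference between the channels. Both arrays put it far from the median member. Clpb, an ATPase with ankyrin repeats, lay at 0.60 and 0.67 (0.64 ± 0.05).

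Tbx15, a T-box factor of skeletal development, had a mean of 1.32 that rested on array 1, where it lay at 2.12, while array 2 gave 0.52. Among the next genes by mean, Asb4 also differed between the arrays, at 0.29 and 1.04. Those that follow were ranked by the smaller of their ratios, which favours genes on which the arrays are close. Otx2, a homeobox factor of the forebrain and eye, lay at 0.65 and 0.40. Obox5, a homeobox gene named for its expression in oocytes, lay at 0.54 and 0.47. Ugp2, an enzyme that makes UDP-glucose, lay at 0.54 and 0.52, and Slf1, a protein of the DNA damage response listed as Ankrd32, at 0.55 and 0.43.

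The 1 gene past 1.5-fold on both arrays on the negative side was Olig1, a basic helix-loop-helix factor of the oligodendrocyte lineage. Array 1 gave -0.59 and array 2 gave -1.20. Its mean was -0.89 ± 0.43 (SD, n = 2), a 1.86-fold difference. Array 2 gave the larger difference for all of the next 8 genes on this side as well. Rarb lay at -0.52 and -0.997, Tcf19, a PHD finger protein, at -0.55 and -0.93, and Tcf25 at -0.41 and -0.90. Zscan2, a zinc finger protein with a SCAN domain, lay at -0.38 and -1.03. Over the members, array 2 had the larger absolute ratio in 59 of 93 genes, and in 1422 of 2319 listed genes.

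Nuclear receptors bind DNA and change transcription when a small ligand such as a retinoid or steroid is present. Of 6 members, 5 lay on the negative side, with a median of -0.39, and all 6 had their larger ratio on array 2. Of all listed genes, 48.3% were positive. Rarb, the retinoic acid receptor that retinoic acid itself induces, had a mean of -0.76 ± 0.34 (SD, n = 2). Rara, its relative expressed in most tissues, lay at -0.06 and -0.46, so most of its mean of -0.26 ± 0.29 came from array 2. The orphan receptor Esrrg, of mitochondrial energy metabolism, lay at -0.47 and -0.56 (-0.52 ± 0.07), where the arrays were closest. The mineralocorticoid receptor Nr3c2 lay at -0.25 and -0.65 and the clock-related receptor Rora at -0.13 and -0.51. Nr5a1, the factor of adrenal and gonadal steroid synthesis, was on the other side at 0.29 and 0.46. A further clone carries the clone-type symbol 1110033M05Rik beside a gene ID that RefSeq names Nr2f1 and the ontology term for steroid receptors. Symbol and ID were not reconciled, and the clone lay at -0.38 and -1.09. With block medians subtracted, the 6 receptors were 1 positive and 5 negative, with a median of -0.28. This is no check of their sides, since the subtraction changed the side of only 1 of the 106 member clones. In blocks of consecutive clone numbers, the clone of Nr5a1 lay in block 14 and those of the 5 negative receptors in blocks 25 to 54.

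Promoter sequences from RefSeq (GRCm38.p6, 250 bases before to 50 after the start, 5′ to 3′ on the gene's strand) were matched by gene ID for 77 of the 93 genes. Those of both retinoic acid receptors are shown because the receptors bind retinoic acid response elements and lie on the same side, and that of Tsc22d1 because it is among the lowest members. For Rarb, at chr14:16575427-16575726 on the minus strand, capitals mark the match to a spaced variant repeat of the retinoic acid receptor core motif. For Rara, at chr11:98937446-98937745 on the plus strand, they mark the 4 matches to the GC box GGGCGG on either strand. For Tsc22d1, at chr14:76415571-76415870 on the plus strand, they mark the 1 match to the E-box CACGTG.
Rarb: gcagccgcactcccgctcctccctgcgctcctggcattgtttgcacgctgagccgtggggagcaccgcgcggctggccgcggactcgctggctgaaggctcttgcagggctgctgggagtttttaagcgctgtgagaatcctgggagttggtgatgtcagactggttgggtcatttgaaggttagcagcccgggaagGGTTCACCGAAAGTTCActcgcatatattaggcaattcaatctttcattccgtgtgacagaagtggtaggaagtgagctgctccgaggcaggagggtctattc
Rara: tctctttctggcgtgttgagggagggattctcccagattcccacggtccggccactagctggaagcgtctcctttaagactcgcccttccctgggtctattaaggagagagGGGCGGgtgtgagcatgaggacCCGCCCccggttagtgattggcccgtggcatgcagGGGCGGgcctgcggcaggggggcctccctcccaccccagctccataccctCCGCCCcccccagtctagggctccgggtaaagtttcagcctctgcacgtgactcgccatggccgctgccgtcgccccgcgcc
Tsc22d1: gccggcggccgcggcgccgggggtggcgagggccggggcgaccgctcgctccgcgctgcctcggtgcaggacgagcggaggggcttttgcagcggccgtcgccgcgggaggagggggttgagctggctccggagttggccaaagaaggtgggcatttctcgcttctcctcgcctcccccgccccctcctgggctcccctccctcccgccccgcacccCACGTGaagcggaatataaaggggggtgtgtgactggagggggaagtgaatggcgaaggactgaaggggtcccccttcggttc

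The repeat in the Rarb window begins at position -53 from the start. It is a variant form, changed in the first copy of the core motif. Of 32851 RefSeq promoters of this length, 0.00609% hold a match to it on either strand. Among 122 member promoters the variant form had 1 match, that in Rarb. The unchanged form of the repeat had 0 matches among them, where 0.0244% of all promoters hold it. Nothing is read from the rarity of the variant form, since the motifs were chosen after the values were seen. The GC box was found in 55.7% of the member promoters and 61.3% of the 2184 promoters of listed genes, beside 35.7% of all promoters. It was found for 25 of 38 genes on the positive and 29 of 39 on the negative side. The CCAAT box CCAAT, the site of NF-Y, was found in 38.5% of member and 37.7% of listed promoters and in 37.4% of all promoters. The E-box was found in 7.38%, 9.71% and 7.15%. The cyclic AMP response element TGACGTCA, which Atf and Creb proteins bind, had a match in the Gpbp1 promoter alone among the members (0.820%), where 1.79% of all promoters hold it. Matches were counted on both strands and separately for each motif, so matches of different motifs could overlap, and they are letters in these windows, not measured binding.

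Homeobox factors set position and cell identity. Of 11 members, 8 were positive and 3 negative, with a median of 0.33, where 48.3% of all listed genes were positive. Pou5f1, the pluripotency factor, lay at 0.44 and 0.24, Obox6 at 0.29 and 0.46 and Satb1, a chromatin organiser of T cells, at 0.23 and 0.19. On the negative side Meis2, listed as Mrg1 and of limb and heart development, lay at a mean of -0.22 ± 0.04 (SD, n = 2). Pknox2, of the same subfamily, had clones on both sides and counts among the positive genes, at a mean of 0.05. The gene listed as LOC245263 and described as similar to double homeobox lay at 0.38 and 0.28. In blocks of consecutive clone numbers, the clones of Pou5f1, Otx2, Satb1, LOC245263, Obox6 and Obox5 lay in blocks 7 to 22 and that of Meis2 in block 48. In blocks 1 to 20, 84.8% of all member clones were positive, and the part of this position in the count was not tested.

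Basic helix-loop-helix factors, which bind E-boxes as pairs, were 5 positive and 3 negative of 8. Clock and Npas2, which both pair with Arntl to drive the circadian clock and can stand in for each other, lay on the same side, at 0.35 and 0.25 for Clock and 0.24 and 0.27 for Npas2. With block medians subtracted, the mean of Clock moved from 0.30 to 0.06 and that of Npas2 from 0.25 to 0.13. Tfe3, a factor of lysosome genes listed as Tcfe3, lay at 0.25 and 0.68, Mycl, a Myc relative, at 0.44 and 0.34 and Mesp2, of somite formation, at 0.32 and 0.43. On the negative side beside Olig1 were Hif1a, the oxygen-regulated factor, at -0.28 and -0.27, and Tcf3, an E protein of lymphocyte development listed as Tcfe2a, at -0.24 and -0.39. The mean of Hif1a, -0.28 ± 0.01 (SD, n = 2), was a difference of 1.21-fold.

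Basic leucine zipper factors were 4 positive and 5 negative of 9, and the largest mean in size was the -0.38 of Atf2. Those of the antioxidant response were split. Nfe2l2, which drives antioxidant genes, lay at 0.24 and 0.30 and Bach1, a repressor that competes with it, at 0.23 and 0.44, while Mafg, the small Maf protein with which both pair, lay at -0.25 and -0.16. The factors of the unfolded protein response and its relatives were split as well. Xbp1 lay at -0.27 and -0.21, Atf6b, listed as Crebl1, at -0.18 and -0.23 and Creb3l2 at -0.16 and -0.23, against 0.34 and 0.23 for Creb3. Atf2, a stress-regulated factor that pairs with Jun, lay at -0.34 and -0.42.

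Of 8 zinc finger proteins of the C2H2 type, 6 had a negative mean, where 48.3% of all listed genes were positive. Among the 6 was Zfp207, at -0.28 and 0.06, and with block medians subtracted 3 of the 8 were positive. Sp3, which binds GC boxes, lay at -0.23 and -0.58, Hivep2 at -0.32 and -0.29, Yy1, a factor that can activate or repress, at -0.34 and -0.25, and Zfp354a at -0.26 and -0.16. Ikzf2, a factor of regulatory T cells, lay at 0.35 and 0.51, and Klf4, of epithelial barriers and pluripotency, at 0.24 and 0.23. All of these values were under 1.5-fold on at least 1 array.

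Factors of cytokine and interferon signalling lay on both sides. Stat3, which protects lung epithelium during injury, lay at -0.54 and -0.25 (-0.40 ± 0.21, SD, n = 2), and Irf9, the DNA-binding part of the interferon-activated complex listed as Isgf3g, at -0.35 and -0.44. Stat4, of T helper cells, lay at 0.20 and 0.44. Nfkb1, which encodes the p50 subunit of NF-kB, lay at 0.28 and 0.34 and Nfkbiz, a nuclear regulator of NF-kB, at 0.34 and 0.51. Rela, the partner of Nfkb1, did not meet the annotation rule and lay at -0.24 and -0.44, so listed subunits of NF-kB were found on both sides. Of the ETS factors, Etv6, needed for blood formation, lay at 0.58 and 0.34 and Ets2 at 0.25 and 0.47, whereas Elk4, a partner of serum response factor, lay at -0.20 and -0.49.

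Effectors of Wnt, BMP and Hippo signalling were each represented by 1 to 3 members. Ctnnb1, the beta-catenin that carries the Wnt signal into the nucleus, lay at 0.22 and 0.30. Its DNA-binding partners were on opposite sides, with Tcf7l1, listed as Tcf3, at 0.51 and 0.33 and Tcf7l2 at -0.23 and -0.22. Smad1, which carries BMP signals, lay at 0.39 and 0.33 (0.36 ± 0.04, SD, n = 2). Tead1 and Tead2, the DNA-binding partners of the Hippo pathway co-activators, were both negative, at -0.22 and -0.44 and at -0.20 and -0.40. Those co-activators are listed too, though not as members, and Yap1 lay at -0.31 and -0.39 and Wwtr1 at -0.50 and -1.15; Yap1 was named after its value was seen. With block medians subtracted, the means of Tead1 and Tead2 were -0.22 and -0.16.

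Further families had 1 to 3 members. The subunits of NF-Y, a trimer that binds CCAAT boxes, lay on opposite sides, with Nfya at -0.43 and -0.53 and Nfyc at 0.20 and 0.27. Of the leucine zipper proteins with a TSC22 domain, Tsc22d1, which TGF-beta induces, lay at -0.48 and -0.73 (-0.60 ± 0.18, SD, n = 2) and Tsc22d3, which glucocorticoids induce, at 0.13 and 0.27. Gata2, of blood stem cells and endothelium, lay at -0.28 and -0.25, Sox11, of neural development, at 0.16 and 0.24, and Hsf5, a heat shock factor family member, at -0.35 and -0.57. Of the 15 families or groups with at least 2 members, all 15 had genes on both sides.

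**Figure D2:**
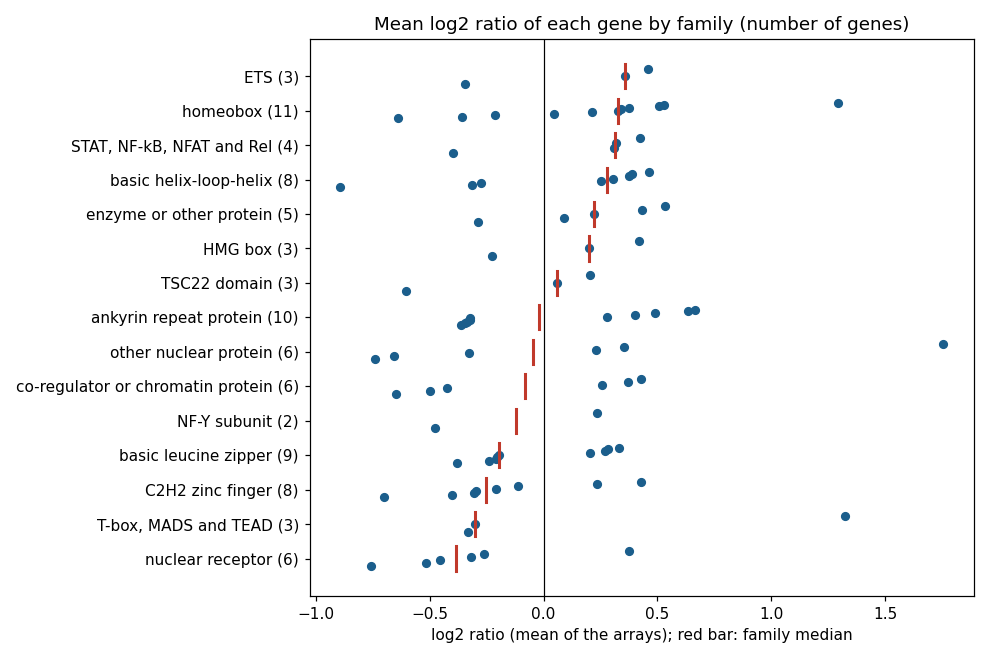
Mean log2 ratio of each gene, by family or group with at least 2 members, ordered by the family median (red bar), with the number of genes in brackets. Each point is 1 gene; the nuclear receptors have the lowest median at -0.39 and the ETS factors the highest at 0.36, and every group has points on both sides of 0.

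Not every member is known as a DNA-binding factor. Proteins with ankyrin repeats, enzymes and other proteins made up 15 of the 93 genes, and the ontology term for DNA binding was attached to 80 genes, that for sequence-specific DNA binding to 37. Of the 37, 18 were positive and 19 negative. Without those 15 genes, 39 of the other 78 were positive and 39 negative. The 10 ankyrin repeat proteins were 5 positive and 5 negative, among them Asb4, of a ubiquitin ligase, with a mean of 0.67, Ankfy1, of endosomes, at 0.54 and 0.27, and Asap1, of actin remodelling and listed as Ddef1, at -0.24 and -0.45. Cers6, a ceramide synthase listed as Lass6, lay at 0.56 and 0.30. Of the 25 genes annotated to zinc ion binding, 18 were negative and 7 positive, where 48.3% of all listed genes were positive. The share among all listed genes with this annotation was not counted, so nothing is read from it.

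Co-regulators, which act through DNA-bound factors, were 3 positive and 3 negative of 6 members. Cbfa2t2, a co-repressor, lay at 0.48 and 0.37, and Rnf20, which ubiquitinates histone H2B, at 0.35 and 0.38. Mtf2, an accessory protein of Polycomb complexes, lay at -0.28 and -0.72. Rere, a co-repressor that also takes part in retinoic acid signalling, had 3 clones, all negative, with a mean of -0.42 ± 0.17 (SD, n = 2 arrays). Among other nuclear proteins, Nfxl1 lay at 0.34 and 0.36, Btf3 at 0.18 and 0.27 and Gpbp1, which binds GC-rich promoters, at -0.20 and -0.45.

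Beyond the members, listed genes of the general transcription machinery and Mediator were 5 positive and 4 negative of 9. Med28, a Mediator subunit, lay at -0.61 and -1.44, Supt16, of the histone chaperone FACT, at -0.57 and -1.06 and Tcea1, an elongation factor, at 0.31 and 0.30. Listed co-activators, co-repressors and chromatin regulators were 18 positive and 15 negative of 33, with a median of 0.26. The largest were Ss18 at 2.15 and 1.64 and Sin3a at 1.66 and 1.75 on the positive side, and Wwtr1 on the negative side. These lists name 92 and 141 genes, and those not in the tables were not analysed here, since the tables alone name clones.

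Lists of factors known for lung cell types were checked in the same way. Only listed clones are named, so how many genes of each list are on the array is unknown, and the lists cannot be compared. The authors listed 3509 of the 22656 clones, and 48.3% of the listed genes were positive. Of 52 factors of lung epithelium, 11 were listed, 4 positive and 7 negative. The 7 that are members were Ctnnb1, Klf4 and Mycl on the positive side and Hif1a, Rara, Rarb and Stat3 on the negative side. Of 58 factors of lung mesenchyme 4 were listed, with the members Smad1 and Tcf7l1 positive and Tcf7l2 negative. Of 28 endothelial factors 4 were listed, with Ets2 and Klf4 positive and Gata2 and Tead1 negative. Of 56 blood and immune factors 8 were listed, 5 positive and 3 negative. Of 38 immediate early and stress factors 6 were listed, 3 positive and 3 negative, among them Nfe2l2 and Xbp1.

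Several clones of 1 gene give a check of a value within an array. Of the 93 genes, 11 had 2 or 3 member clones, and for 6 of these the clones lay on both sides, where 50.2% of the 225 listed genes with several clones did so. Foxo3, the forkhead factor of stress resistance listed as Foxo3a, had 1 clone at 2.09 and 0.14 and another at -0.24 and -0.47. Nfe2l1, a factor of proteasome genes, had clones at 0.85 and 0.44 and at -0.29 and -0.17. For these genes the mean over clones, such as 0.38 for Foxo3, describes neither clone.

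Nckap1l, an actin regulator of blood cells, had clones at 0.25 and 0.91 and at -0.29 and -0.51. Pknox2 had clones at 0.27 and 0.28 and at -0.09 and -0.28, and Tsc22d2 at 0.29 and 0.40 and at -0.06 and -0.39. The clones of the other 5 genes lay on 1 side, which was the negative side for all 5. Aff3, a protein of transcription elongation, had clones at -0.89 and -1.19 and at -0.24 and -0.26, so they differed in size by more than the arrays did. The 3 clones of Rere lay at -0.41 and -0.40, at -0.28 and -0.72, and at -0.22 and -0.52. Anks3, Asz1, a germ cell protein, and Kank2, listed as Ankrd25, had means of -0.32 ± 0.08, -0.36 ± 0.06 and -0.32 ± 0.08 (SD, n = 2 arrays). In addition, 2 clones carry the symbols Aff3 and Etv6 with another gene ID and without the ontology term, and they lay at -0.28 and -0.42 and at 0.39 and 1.66.

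**Figure D3:**
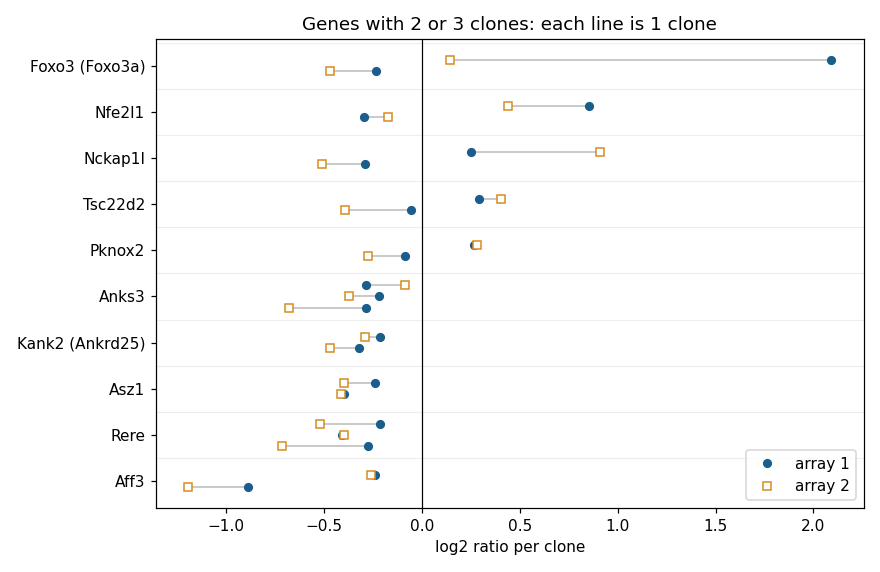
Log2 ratio of every member clone of 10 genes with 2 or 3 clones, on array 1 (filled circles) and array 2 (open squares), with a line joining the arrays for each clone. For 5 of these genes, among them Foxo3 and Nfe2l1, the clones lie on both sides of 0, and the 3 clones each of Rere and Anks3 are all negative.

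The side of a clone went with its place in the clone set. In plate-sized blocks of consecutive clone numbers, the block medians over all clones ran from -0.33 to 0.34. In blocks 1 to 20, 28 of 33 member clones were positive (84.8%), beside 74.2% of listed clones with a symbol and 65.0% of all clones. In blocks 21 to 40, 10 of 35 were positive (28.6%), beside 33.3% and 46.2%, and in blocks 41 to 59, 11 of 38 (28.9%), beside 35.5% and 44.2%. For 89 of 106 member clones (84.0%) the clone and the median of its block had the same sign, as for 76.0% of listed clones with a symbol. Whether plate or spotting had a part in the sides, or in the counts by family, was not tested. Subtracting the block medians changed the side of 1 member clone, that of Zfp207.

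Subtracting them did change sizes, and 30 of the 93 gene means moved by over 1.5 times without a change of side, 28 toward 0 and 2, Hif1a and Mafg, away from it. The mean of Klf4 moved from 0.23 to 0.06, that of Satb1 from 0.21 to 0.09 and that of Creb3l2 from -0.20 to -0.06, while Hif1a moved from -0.28 to -0.44 and Mafg from -0.21 to -0.38. The values given above for the following genes are likewise over 1.5 times those after subtraction. Gata2 moved to -0.12, Ctnnb1 to 0.13, Creb3 to 0.15, Nfyc to 0.12, Yy1 to -0.15, Tsc22d3 to 0.06, Nfe2l1 to 0.05 and Btf3 to 0.10. Stat4 moved to 0.17, Irf9 to -0.25, Ets2 to 0.20, Tcf3 (listed as Tcfe2a) to -0.18, Atf6b to -0.12, Cbfa2t2 to 0.24 and Pou5f1 to 0.19. Mycl moved to 0.26, Nfxl1 to 0.23 and Obox6 to 0.25. The largest values hardly moved, with Ahctf1 at 1.75 and Tbx15 at 1.32 after subtraction. Their clones lie in blocks 56 and 55.

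The members lay on 19 chromosomes, with 10 genes on chromosome 11 (3 positive, 7 negative) and 9 on chromosome 1 (5 positive, 4 negative). Of the 3 X-linked members, Tfe3 and Tsc22d3 lay on the positive side. Xist, the RNA of the inactive X chromosome, lay at 2.69 and 2.15 and the Y-linked Ddx3y at -1.12 and -0.61 on the same arrays. Clones of the Y-linked Eif2s3y lay at -0.34 and -0.04 and at -0.44 and -0.94. The part of sex in the values given here was not tested, and the labels do not state which sexes were used. A difference in sex between the channels could not be told apart from genotype or dye.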

How the data were processed

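RNA of 1 wild-type and 1 knockout lung sample per array was measured on 2 spotted cDNA arrays. The authors deposited 1 log2 ratio per clone and array, and no source used here states how spots were corrected and scaled. Per the file headers, the authors' tables hold for each listed clone a fold change on a linear scale with its p-value, without naming the test.

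Every clone with both values was tested with limma 3.58.1 in R 4.3.3 (intercept, eBayes, two-sided, Benjamini-Hochberg over all 22532 clones, threshold 0.05), after tests on simulated data. 3 control features were left out. Clones were grouped by the symbol in the tables. Of the 106 member clones, RefSeq (GRCm38.p6) gave 90 the same symbol through their gene ID, 14 a newer one, and 2 a symbol that could not be reconciled. A gene's value is the mean over its clones, and an SD is over 2 arrays.

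The members, gene lists and families were chosen with earlier results of these data known. Of 120 clones with the ontology term, 11 were left out by other terms and 3 by name. Named were Bclaf1, 12 genes per side by the smaller of the ratios among genes whose clones and arrays share a sign, 3 per family by absolute mean, members of 5 lists of lung-related factors, genes with several clones, and 3 genes for each of 2 wider lists. The counts cover all 93 genes, of which 3 are not reported by name here. Genes outside this rule were chosen after their values were seen, as were the motifs, the groups of members that match no family pattern, and the block ranges. The alternatives were median centring, equal median absolute deviation, quantile normalization, block medians subtracted, the clone with the smallest spread, each array alone, a 2-fold threshold, robust eBayes, an ordinary one-sample statistic, clones with 1 value and genes averaged over clones. Spot intensities were not used here, so dim spots were not filtered, and the number of arrays limits the precision.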

Additional observations from a re-analysis of the deposited data

How the results depend on the processing

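In limma's test, 0 member clones passed at an adjusted p under 0.05 as deposited and under all 8 alternatives tried for it, and their lowest adjusted p ran from 0.319 after quantile normalization to 0.578 with the ordinary one-sample statistic. The number of genes on the positive side was 46 to 49 under every alternative, beside 48 as deposited. The count past 1.5-fold on the positive side was 3 as deposited, 2 with the median absolute deviations of the arrays made equal, 5 to 6 with 1 array left out and 1 past 2-fold. On the negative side it was 1 as deposited, 4 with equal median absolute deviations, 4 after quantile normalization, 0 with block medians subtracted, 1 to 12 with 1 array left out (12 on array 2 alone) and 0 past 2-fold. On a single array these counts cannot be smaller than on both, and array 2 had the larger spread over all clones (SD 0.430 against 0.299). The median over members was 0.06, 0.004 to 0.091 with 1 array left out, and -0.11 where the clone with the smallest spread stood for its gene. Among the 66 genes named by rule, signs turned for 3 whose clones disagree. With the clone of smallest spread the value was -0.35 for Foxo3a, -0.40 for Nckap1l and -0.23 for Nfe2l1. With 1 array left out Foxo3a ran from -0.16 to 0.93 and Nckap1l from -0.018 to 0.20. Subtracting block medians kept the side of all 66 but moved 28 by more than their SD between arrays. The other genes named by rule kept their side under the alternatives run. Zfp207, outside the rule, has 1 clone and turned from -0.11 to 0.049 with block medians subtracted and to 0.06 on array 2 alone. No paired analysis was possible because each array already holds both genotypes and the ratio is the paired value.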
